A study of Mus musculus with 5 samples.

Results

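The albumin gene family of the mouse comprises the 4 genes Alb, Afp, Afm and Gc, and its members were taken by gene symbol from 16252 genes listed in Ago HITS-CLIP tables of the developing liver. In Ago HITS-CLIP, RNA is crosslinked to Argonaute (Ago) proteins by ultraviolet light, precipitated with Ago antibodies and sequenced, and overlapping reads form clusters that mark where Ago sat on an RNA. Livers of C57BL/6 mice (C57BL/6J in the methods) were taken at 3 embryonic stages, named e12.5, e15.5 and e18.5 by the day of gestation, on day 7 after birth (P7) and in adulthood (at an age of 6 to 8 weeks). There was 1 table per stage, called a library here. The methods name 2 biological replicates for Ago2, which the tables do not tell apart, and the study's supplement lists a replicate sample for e18.5 alone. No genotype or treatment was named. Ago2 antibodies were used for the 3 embryonic livers and Ago2 and Ago1 antibodies for P7 and adult livers, so that the antibody and the time after birth cannot be told apart.

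Albumin is the main protein of adult plasma and carries fatty acids, hormones and drugs, and alpha-fetoprotein, the product of Afp, takes its place in the fetus and is silenced after birth. Afamin, encoded by Afm, binds vitamin E, and the vitamin D-binding protein, encoded by Gc, carries vitamin D metabolites and actin released from dead cells. All are secreted by hepatocytes. The genes arose from a common ancestor, and the transcription of Alb and Afp is a classical marker of hepatocyte differentiation. MiRNAs guide Ago through their seed (bases 2 to 8 of the miRNA), and a seed match in an mRNA pairs with 6 of these bases (6mer), 7 of them (7mer-m8), 6 of them with an A opposite base 1 (7mer-A1), or 7 of them with that A (8mer).

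In GRCm38, the members lay on chromosome 5. Alb (chr5:90460897-90476602), Afp (chr5:90490737-90508907) and Afm (chr5:90518932-90553543) followed each other on the plus strand, and Gc (chr5:89417522-89457898) lay apart from them on the minus strand. Alb, Afp and Afm had 15 exons each and Gc had 13. In 9 of the 15 exons the length was the same in Alb, Afp and Afm, and 5 Gc exons had the length of the Alb exon of the same number. The spliced mRNAs measured 2034, 2063, 2038 and 1801 bases in that order. No stretch over 13 bases was identical between the mRNAs of any pair, so that a read longer than this could be placed on 1 member. Every one of the 6061 entries of the members had its seed match at the end of the deposited target fragment.

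A few of the seed matches in coding exons described below are shown as they were deposited, 5′ to 3′ on the mRNA. Those in the highest Alb cluster of the adult, in exon 3, and those in the 3′UTR of Afp are not among them. The bases that match the miRNA seed, and an A opposite base 1 where the match type has it, are in capitals. The position behind each is that of the capitals in GRCm38.
Gc exon 7, let-7 family, 8mer, chr5:89439554-89439561: cagatgttgtgagtCTACCTCA
Gc exon 7, miR-378a-3p, 7mer-A1, chr5:89439572-89439578: tttactgaaatcctGTCCAGA
Alb exon 13, miR-16-5p, 6mer, chr5:90474667-90474672: gatacatgttgcaagGCTGCTg
Alb exon 9, miR-103-3p and miR-107-3p, 6mer, chr5:90469593-90469598: agccactctggaaaagTGCTGCg
Alb exon 10, miR-27a-3p and miR-27b-3p, 7mer-m8, chr5:90470793-90470799: ttggtcaaaaccaACTGTGAt
Afp exon 13, miR-223-3p, 8mer, chr5:90507830-90507837: gaagcaaaagcctgAACTGACA
Afp exon 12, miR-125b-5p and miR-351-5p, 7mer-m8, chr5:90506711-90506717: ggatctgtgccaagCTCAGGGc
Afp exon 3, miR-92a-3p, 6mer, chr5:90492728-90492733: agcgatgtgttggcTGCAATg

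The mature miRNAs that these sites match, other than miR-378a-3p, are given from RefSeq (GRCm38.p6) with the seed, bases 2 to 8, in capitals. let-7a-5p, let-7b-5p and let-7f-5p share the seed of let-7c-5p, miR-107-3p that of miR-103-3p, miR-27a-3p that of miR-27b-3p, and miR-351-5p that of miR-125b-5p.
let-7c-5p: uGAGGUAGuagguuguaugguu
miR-16-5p: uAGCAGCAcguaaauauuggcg
miR-103-3p: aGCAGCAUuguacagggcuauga
miR-27b-3p: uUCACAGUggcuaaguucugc
miR-223-3p: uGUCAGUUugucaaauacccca
miR-125b-5p: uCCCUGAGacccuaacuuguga
miR-92a-3p: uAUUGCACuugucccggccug

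The summed cluster reads of the 5 libraries ranged from 13008703 to 44867326, and 13.5% to 30.0% of them lay in coding sequence (CDS), 3′UTR or 5′UTR clusters (mRNA clusters). A gene's level is given in RPM, which is the highest reads of each of its clusters, added up, per 1000000 summed cluster reads. The column of reads refers to a miRNA target in the e12.5 table and to a peak in the later tables, and whether both name the same measure is not known. All 8 hepatocyte markers were listed in every library, with summed levels from 633 RPM at e12.5 to 6873 at e18.5. Erythroid markers summed to 36449, 52403, 51233, 18270 and 883 RPM from e12.5 to adult with Hba-a1 and Hba-a2, which had nearly the same reads in every library, counted once, and 9 of 10 markers were listed before adulthood and 6 of 10 in the adult. Fetal hepatocyte markers summed to 2534 to 5980 RPM before adulthood and to 6.07 in the adult, where 2 of 4 (Dlk1 and Igf2) had no entry. All 3 endothelial markers were listed throughout, with sums of 21.5 RPM at e12.5, 193 at P7 and 151 in the adult. Stellate cell markers summed to 26.3 to 134 RPM, other blood cell markers to 45.9 to 349 and cholangiocyte markers to at most 18.2. The part of these shifts in the members' values was not tested. In a whole liver, fewer cells of a type and less RNA per cell cannot be told apart, nor can mRNA amount and Ago occupancy, since total RNA was not analysed here. Each embryonic table held 2 lists of entries, which were added up. What the lists are is not given in the sources used here.

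The first question was how Ago-bound reads of the family changed as the liver matured. Alb, the main cargo carrier of adult plasma, had a higher level at each later stage. Its level was 345, 1196, 2591, 3816 and 6248 RPM in the order of the stages, from e12.5 to adult. The adult level was 18.1-fold that at e12.5 (log2 change 4.18, counting interval 4.15 to 4.20), while the median of 10362 genes listed in both libraries was -1.09. As a share of mRNA cluster reads, Alb went from 0.147% to 4.62%.

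Afp followed another course. Its level was 556, 1541, 984 and 797 RPM in the libraries from e12.5 to P7, and the adult table had no entry for it. Afp was thus highest at e15.5, and its level at P7 exceeded that at e12.5, other than in the first list alone, where Afp had 890 RPM at e12.5. Since the tables list only entries of at least 5 reads, no limit can be set on Afp in the adult library and no fold is given.

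**Figure D1:**
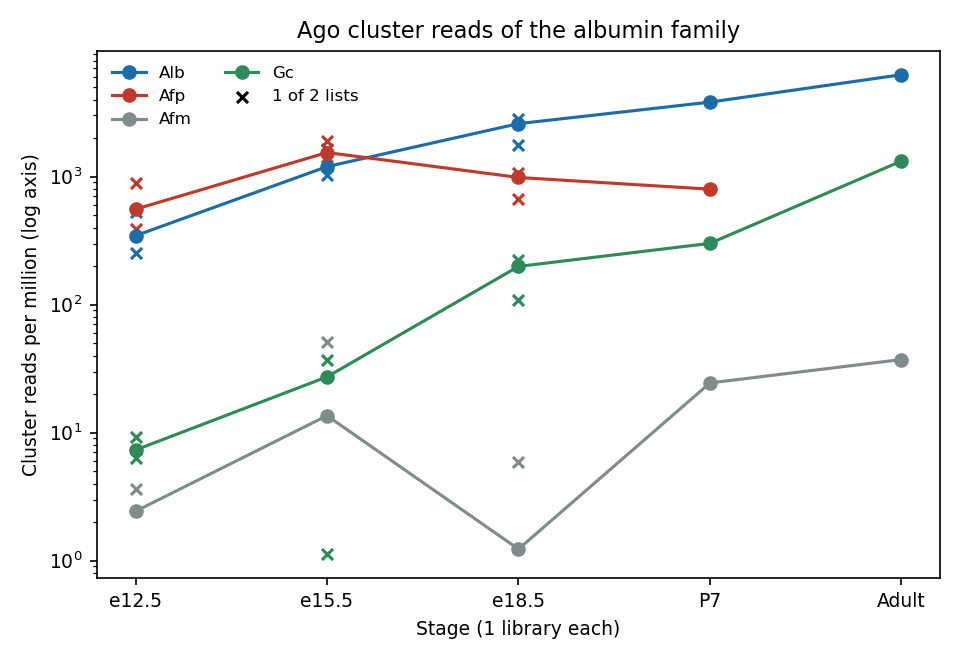
Levels in RPM (log axis) of Alb, Afp, Afm and Gc at each stage, 1 library each; crosses give the value within 1 of the 2 lists of an embryonic table. Alb and Gc were higher at each later stage, Afp peaked at e15.5 and had no entry in the adult, and the lists differed most for Gc at e15.5 (1.13 and 36.8 RPM) and for Afm.

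The order of the 2 most abundant members turned between e15.5 and e18.5. Per kilobase of mRNA, counting reads of mRNA clusters only, the level of Afp was 264 RPM at e12.5, where Alb had 168, and 738 RPM at e15.5, where Alb had 576. By e18.5 Alb had 1240 RPM per kilobase and Afp 471, and at P7 Alb had 1871 and Afp 381. The ratio of Alb to Afp per kilobase was therefore 0.637, 0.780, 2.63 and 4.91 from e12.5 to P7. The ratio is taken within a library and does not depend on how libraries are scaled. Within the single lists, the ratio of Afp to Alb in cluster reads was 1.68 and 1.54 for e12.5. The lists of e15.5 gave 1.15 and 1.37, and those of e18.5 gave 0.379 and 0.382, so that the lists of a stage lay closer to each other than to those of e18.5.

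Gc had the steepest course of the family. Its level was 7.31, 27.2, 199, 301 and 1322 RPM in the 5 libraries, with no stage below an earlier one. From e12.5 to adult it rose 181-fold (log2 change 7.50, counting interval 7.34 to 7.66), which placed it at rank 30 among the 10362 genes. At e15.5, however, the first list gave 1.13 RPM and the second 36.8, a difference of 2-fold or more in the direction that 10.1% of the genes in both lists had. With the first list alone Gc did not rise from e12.5 to e15.5. Alb exceeded Gc 41.4-fold per kilobase at e12.5 and 4.19-fold in the adult.

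Afm had the fewest reads of the family in every library that listed all members. Its level was 2.43 (counting interval 2.01 to 2.93), 13.6, 1.23, 24.4 and 37.2 RPM, and each embryonic value came from 1 of the 2 lists and from 109, 224 and 16 reads. The value at e15.5 rested on a single cluster, listed in the first list, whereas the values at e12.5 and e18.5 came from the second list, so that neither step from or to e15.5 could be measured within a list. Within the second list Afm had 3.63 RPM at e12.5 and 5.93 at e18.5, the other direction than in the joined lists. Only after birth did Afm hold clusters in many exons, with 10 of 15 exons at P7 and 11 of 15 in the adult against at most 2 in an embryonic library.

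All 3 members listed at both ends, Alb, Afm and Gc, were at least 2-fold higher in the adult than at e12.5, as were 18.7% of all genes listed in both libraries, while 51.8% were at least 2-fold lower. With mRNA cluster reads in place of all cluster reads as the scale, 2899 genes were higher and 3753 lower (1933 and 5369 on the main scale), the median log2 change was -0.30, and the 3 members remained past 2-fold. In the first interval, e12.5 to e15.5, all 4 members were at least 2-fold higher (log2 changes of 1.47 to 2.48), against a background of 23.1% (21.8% lower). For Afm this set the second list of e12.5 against the first list of e15.5, with no entry at e15.5 in the second, and within the first list Gc fell by 3.04. In the next interval, to e18.5, Alb (1.12) and Gc (2.87) were past 2-fold higher, against a background of 30.1%, Afm (-3.46) was past 2-fold lower, against 27.5%, and Afp changed by -0.65. Alb fell short of 2-fold within the first list (0.79), within the second (0.76) and with matches of at least 7 bases (0.84). Afp passed 2-fold lower within the second list (-1.08), and Afm, with entries at e18.5 but none at e15.5, took the other direction there. Afm alone passed 2-fold between e18.5 and P7 (4.31, or 2.04 with the second list alone, which held all 16 reads at e18.5, against a background of 19.8% higher and 34.6% lower), and Gc alone between P7 and adult (2.14, background 9.57% higher and 43.3% lower). Counting only reads of mRNA clusters, on their own scale, Alb and Gc also passed 2-fold between e18.5 and P7 (1.15 and 1.11, background 29.4%), and Alb and Afm between P7 and adult (1.31 and 1.26, background 19.9%), and the change of Afp between e18.5 and P7 was 0.25 in place of -0.30. With 1 library per stage these are differences between libraries, and no test was possible.

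Most reads of Alb, Afp and Gc lay in the coding sequence. CDS clusters held 96.7% to 98.6% of the reads of Alb and 93.7% to 100% of those of Gc. For Afp the share was 84.9%, 90.7%, 75.5% and 86.9% from e12.5 to P7, and its 3′UTR held 8.20% of the reads at e15.5 and 23.3% at e18.5, with the other libraries in between. For Afm, CDS clusters held 50.5% of the 109 reads at e12.5, where the 3′UTR held 34.9% and introns 14.7%, and 87.8% to 100% in the other libraries. Clusters that touch more than 1 region count in each of them. Between 73.7% and 90.9% of the bases of the Alb mRNA lay within the stretch of a cluster that its listed matches spanned, and for Gc this share went from 10.3% at e12.5 to 66.1% in the adult. Within the summed reads of the 4 members, Alb held 37.9%, 43.1%, 68.6%, 77.3% and 82.1% from e12.5 to adult, and Gc went from 0.803% to 17.4%. The number of clusters of Alb, 21 to 28 per library, had no such course, nor had that of Afp, 24 to 28 before adulthood.

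Within Alb, the exons that held most reads changed with the stage. An exon's reads are the highest reads at any listed match in it, added up over the lists. They give the height of a peak and not all reads in the exon. Of these exon reads summed over Alb, exon 3 took 8.82%, 14.0%, 9.09%, 21.8% and 32.5% from e12.5 to adult. Exon 9 took 9.61%, 8.25%, 27.4%, 30.5% and 10.9%, with its maximum around birth. Exon 13 took 9.58%, 10.5%, 13.4%, 6.61% and 25.3%. In the adult, exons 3 and 13 together held 57.8% of the exon reads, and the highest exon exceeded the median exon 10.5-fold, against 2.08-fold at e12.5. Spearman's rho of the 15 exons between pairs of stages was 0.475 to 0.829 for Alb. These correlations are descriptions across exons of 1 gene, which share a library.

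Within Afp, the leading exon differed between stages. Exon 15, which holds 3′UTR, led at e12.5 with 13.7% of exon reads and again at e18.5 with 27.3%. Exon 3 led at e15.5 (24.6%) and exon 13 at P7 (26.7%). The rho between stages was 0.225 to 0.614.

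Within Gc, exon 7 took over. It held 0%, 7.56%, 32.1%, 42.9% and 72.8% of the exon reads from e12.5 to adult, and in the adult it exceeded the median exon 39.9-fold. No entry was listed in it at e12.5. Exons 9 and 5 led at e12.5 and e15.5, with 94 and 82 reads. Between e18.5, P7 and adult the rho of the 13 exons was 0.768 to 0.845.

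**Figure D2:**
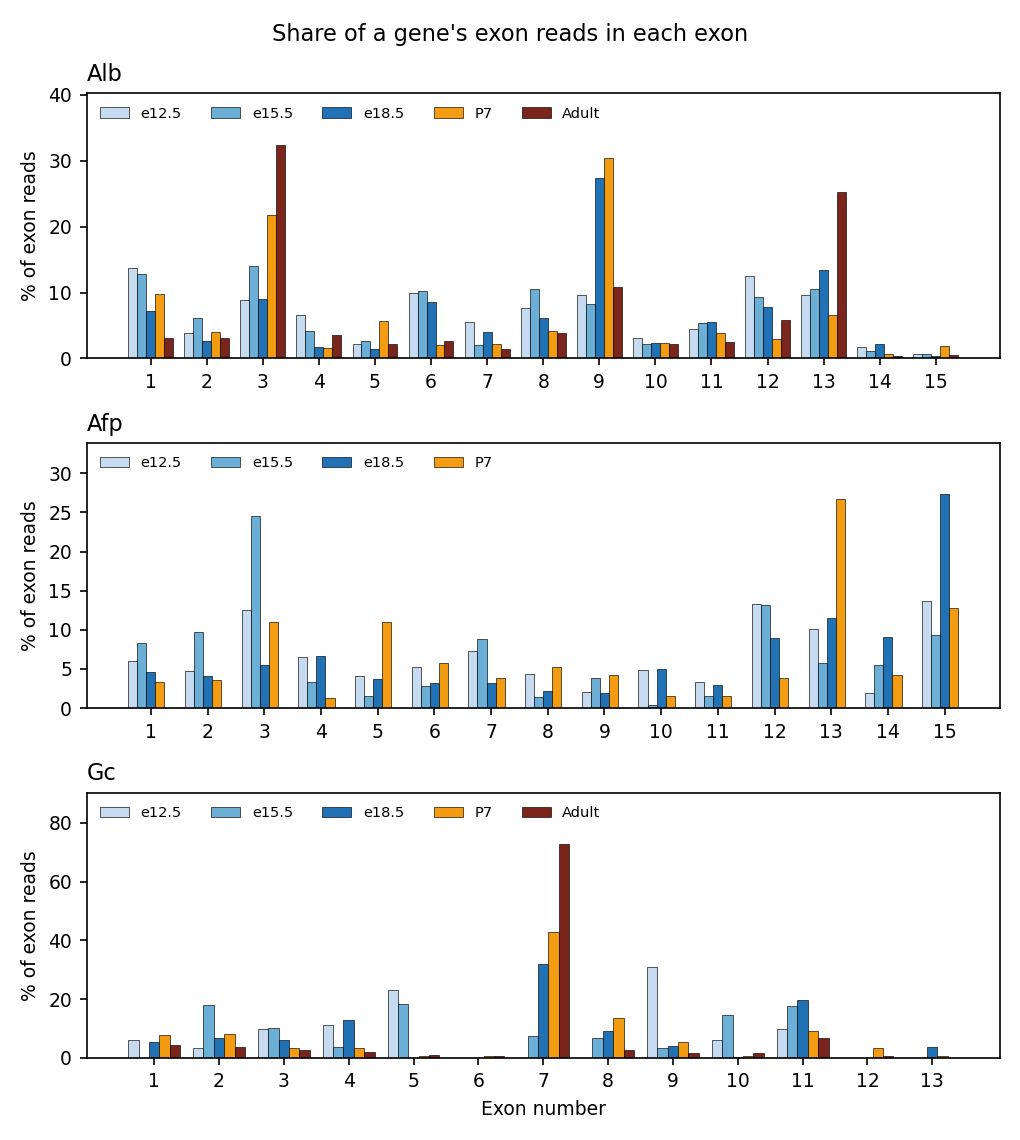
Share (in %) of each exon in the summed exon reads of Alb, Afp and Gc, with 1 bar per stage. An exon's reads are the highest reads at any listed match in it. Alb exon 9 was highest at e18.5 and P7, Alb exons 3 and 13 in the adult, Afp exon 15 at e18.5 and exon 13 at P7, and Gc exon 7 reached 72.8% in the adult.

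The next question was which miRNAs match the places of highest reads. Reads over a seed match are the highest reads of the fragment around it, and neighbouring matches of different miRNAs share the same reads, so that reads cannot be assigned to 1 miRNA. Matches are ranked below by these reads, with no account of the level of their gene. Among all genes, by reads of mRNA clusters, Alb was at rank 2 and Gc at rank 5 in the adult. Afp was at ranks 10, 6, 12 and 15 from e12.5 to P7. Over the 5 libraries, 438 miRNAs had a listed match in Alb, 404 in Afp, 198 in Afm and 307 in Gc, and these formed 661, 586, 228 and 440 distinct sites. Of these sites, 545, 500, 177 and 361 lay in exons, and 51, 41, 22 and 30 of all sites were 8mers. Within single libraries, 8mers made up 7.66% to 8.98% of the sites of all genes. The share was 6.53% to 7.59% for Alb and 4.58% to 7.07% for Afp before adulthood. For Gc it was 1.89% to 14.8%, and for Afm, with few sites in the embryonic libraries, 0% to 25.0%. The median conservation score of the exon sites was 0.434 for Alb, 0.498 for Afp, 0.357 for Afm and 0.505 for Gc, while that of the intron sites was at most 0.005. Sites recurred more in the abundant members, with 175 Alb sites listed in all 5 libraries, 194 Afp sites in all 4 libraries before adulthood, 10 Gc sites in all 5 and no Afm site. An entry needs at least 5 reads, and the part of read number in this difference was not tested. Description was therefore kept to the 20 miRNAs with the highest number in the interaction names of each library, taken here as a measure of abundance, whose meaning is not stated in the sources used here, to 5 chosen miRNAs (miR-122-5p, let-7c-5p, miR-142a-3p, miR-144-3p and miR-451a), and to the clusters with most reads. Of the resulting 32 abundant or chosen miRNAs, 29 had a match in a member and 21 had one in an exon.

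The peak of Gc exon 7 spanned an 8mer of the let-7 family, miRNAs that accumulate as tissues differentiate. Reads over the 8mer were 0, 34, 642, 1820 and 23823 from e12.5 to adult, or 0, 2.06, 49.4, 110 and 957 RPM. No entry was listed at e12.5, and the value at P7 was above each embryonic value and below the adult value. let-7c-5p itself went from place 22 among the miRNAs at e12.5 to place 2 at P7 and place 1 in the adult, where it held 15.6% of the summed numbers against 0.464% at e12.5. Of the 1147 let-7c-5p matches in mRNA regions of the adult library, that in Gc had the most reads, where the median was 32. It was at rank 5 of 1280 at P7, at rank 10 of 466 at e18.5 and at rank 247 of 432 at e15.5, where its 34 reads lay under the median of 40. The conservation score of the site was 0.349 on the deposited scale from 0 to 1.

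A short way upstream in the same exon lay a 7mer-A1 of miR-378a-3p with a conservation score of 1. Reads over it were 499, 1248 and 21866 at e18.5, P7 and adult, with no entry before, and it too had the most reads of all matches of its miRNA in mRNA regions of the adult library (669 matches). Matches of miR-193a-3p and miR-193b-3p lay downstream in the same peak and carried the same 23823 reads as the let-7 match in the adult. The listed matches with at least 0.5 of the exon's highest reads spanned chr5:89439536-89439579 both at e18.5 and in the adult, and reached 2 bases further downstream at P7. Matches have fixed positions in the sequence, so these spans do not tell where the peak itself began and ended. In the adult, the 7mer-m8 of miR-30a-3p upstream of the peak had 3261 reads, and in exon 11, the exon with the next most reads, a 7mer-m8 of miR-16-5p had 2190 and a 6mer of miR-30a-3p 2185. The latter grew through all libraries, with 30, 80, 250, 393 and 2185 reads. Gc had no other exon match of let-7c-5p, and its matches in introns had at most 22 reads.

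In Alb exon 13, a 6mer of miR-16-5p, a member of the miR-15/16 family that acts on cell-cycle genes, had 1266, 1773, 4320, 4007 and 30575 reads from e12.5 to adult (28.2, 107, 332, 243 and 1229 RPM). The adult value was far above the others, but lay under the highest reads of the exon, which were 39023 in the adult. In the adult it had the most reads of 2497 miR-16-5p matches in mRNA regions, whose median was 28, and it was at rank 4 at e18.5 and P7, at rank 10 of 1972 at e15.5 and at rank 37 of 3840 at e12.5. miR-16-5p was at place 2 in the adult with 14.0% of the summed numbers and between places 3 and 6 in the other libraries. The conservation score of this site was 0.057. A second Alb match, a 7mer-m8 in exon 8, had 551, 1728, 1020, 2325 and 3279 reads.

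The maximum of Alb exon 9 lay over a 6mer of miR-103-3p and miR-107-3p, a pair known for acting on insulin signalling, with a conservation score of 0.999. Reads over it were 1330, 1328, 8816, 19132 and 16748. They were thus higher at e18.5, P7 and adult than before. In RPM they were 29.6, 80.4, 678, 1160 and 673, highest at P7.

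At the maximum of Alb exon 3, which was the highest Alb cluster of the adult with 50078 reads, no match of an abundant miRNA was listed. The matches there were those of miR-5114 (an 8mer), miR-1948-5p and miR-487b-3p, followed by a 7mer-A1 of miR-182-5p and miR-96-5p. The match of miR-182-5p had 1080, 2538, 2807, 11917 and 47139 reads and that of miR-5114 was not listed at P7. Further along the exon, miR-27a-3p and miR-27b-3p had a 7mer-m8 with 2514 reads in the adult. miR-27b, which acts on lipid metabolism genes, had another 7mer-m8 in exon 10, with 216, 322, 597, 1479 and 3465 reads and a conservation score of 0.990. In the adult the latter was at rank 2 of 1591 miR-27b-3p matches. Further coding matches of abundant miRNAs ranked high among those of their miRNA in the adult, a 7mer-A1 of miR-186-5p in exon 5 (65, 370, 183, 3461 and 3309 reads, rank 1 at P7 and in the adult) and a 6mer of miR-194-5p in exon 12 (323, 306, 564, 691 and 3997 reads, rank 3 in the adult).

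**Figure D3:**
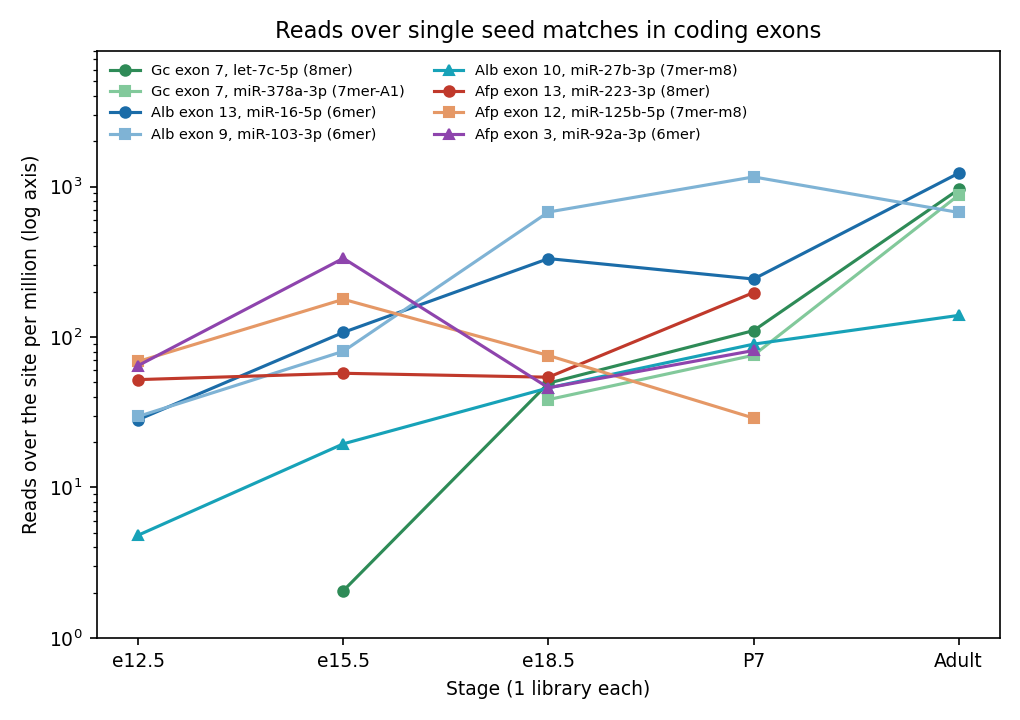
Reads over single seed matches in coding exons, in RPM (log axis), at each stage; libraries without an entry have no point. The matches in Gc exon 7 and Alb exon 13 were highest in the adult, that in Alb exon 9 at P7, and those in Afp exons 3 and 12 at e15.5.

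The leading sites of Afp belonged to other miRNAs. An 8mer of miR-223-3p, an miRNA abundant in myeloid cells, lay in exon 13 with a conservation score of 0.943. Its reads were 2337, 948, 703 and 3258 from e12.5 to P7. In RPM they were 52.1, 57.4, 54.0 and 197, so that the embryonic libraries were close together and P7 was higher. At P7 it had the most reads of 836 miR-223-3p matches in mRNA regions, and it was at rank 2 of 882 at e12.5, 6 of 536 at e15.5 and 8 of 621 at e18.5. A 7mer-m8 of miR-125b-5p and miR-351-5p in exon 12, with a conservation score of 0.998, had 68.8, 178, 75.3 and 28.9 RPM and was thus lowest at P7. A 6mer of miR-92a-3p, of the miR-17-92 cluster, lay in exon 3 and had 64.6, 334, 46.0 and 81.3 RPM, and it had the most reads of the miR-92a-3p matches at e15.5 and P7. The 6mer of miR-16-5p in Afp exon 4 had 25.9, 29.2, 18.6 and 7.39 RPM and was lowest at P7, while another in exon 5 had 4.79, 4.06 and 8.12 RPM at e12.5, e15.5 and P7, with no entry at e18.5. In the 3′UTR of Afp, the highest reads lay over matches of miR-377-3p, miR-24-3p, miR-700-5p and miR-505-3p in poorly conserved sequence, with scores of at most 0.007. Over the 6mer of miR-24-3p they were 3178, 2079, 1968 and 1560, and over the 7mer-m8 of miR-505-3p 846, 920, 2706 and 1560, so that the maximum moved within the 3′UTR at e18.5. The highest reads in the 5′UTR, 811, 1358, 434 and 290, lay over matches of miR-138-5p, miR-135a-5p and miR-93-3p.

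The reads of Afm were too few to name a leading site. Its match with most reads among abundant miRNAs was a 6mer of miR-486a-5p and miR-486b-5p in exon 3 with 22, 224, 0, 63 and 132 reads. In the adult alone the most reads lay over a 7mer-A1 of miR-27a-3p and miR-27b-3p in exon 7, with 150 reads there and 21 at P7.

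MiR-122-5p, the liver-specific miRNA, was at place 6 at e12.5, place 4 at e15.5 and e18.5, place 1 at P7 and place 3 in the adult. It had no listed match in an exon of any member. It had 2 matches in Afp introns and 3 in Gc introns, with at most 101 reads each, and none in Alb or Afm. Of the blood cell miRNAs, miR-142a-3p had 1 intron match in Alb (56 reads in the adult), miR-451a had 1 intron match in Afp (30 reads at e15.5) and miR-144-3p had none.

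The final comparison set the family beside other genes of its pathway. Of 32 other plasma proteins made by hepatocytes, 30 were listed both at e12.5 and in the adult, and 29 of these were at least 2-fold higher in the adult (18.7% over all genes), none lower, with a median log2 change of 3.30 (-1.09 over all genes). In the first interval 27 of 30 were at least 2-fold higher (23.1% over all genes), and in the second 24 of 30, with 1 lower (30.1% and 27.5% over all genes). The median change of the list was 1.55 and 1.70 in these intervals. From e18.5 to P7 4 of 31 were higher and 4 lower (19.8% and 34.6% over all genes). From P7 to adult 9 of 31 were higher and 2 lower (9.57% and 43.3% over all genes), with a median change of 0.19. The proteins with the highest RPM in any library were Ahsg, a fetal plasma glycoprotein (93.8, 383, 2147, 1084 and 654 RPM), Trf, which carries iron (257, 700, 1943, 2018 and 1335), Apob of the lipoproteins (129, 271, 604, 1167 and 803) and Ttr, which carries thyroid hormone (59.8, 245, 737, 884 and 382). All 4 were lower in the adult than at P7. Of the 32 proteins, 13 had their highest level in the adult, as Alb, Afm and Gc had, 9 at P7 and 10 at e18.5.

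Relative to the summed reads of that list, Alb stood at 26.5%, 31.8%, 22.2%, 37.7% and 62.4% from e12.5 to adult, and Gc at 0.560%, 0.725%, 1.70%, 2.97% and 13.2%. Afp stood at 42.6%, 41.0%, 8.41% and 7.87% from e12.5 to P7. These ratios are also independent of the scale.

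**Figure D4:**
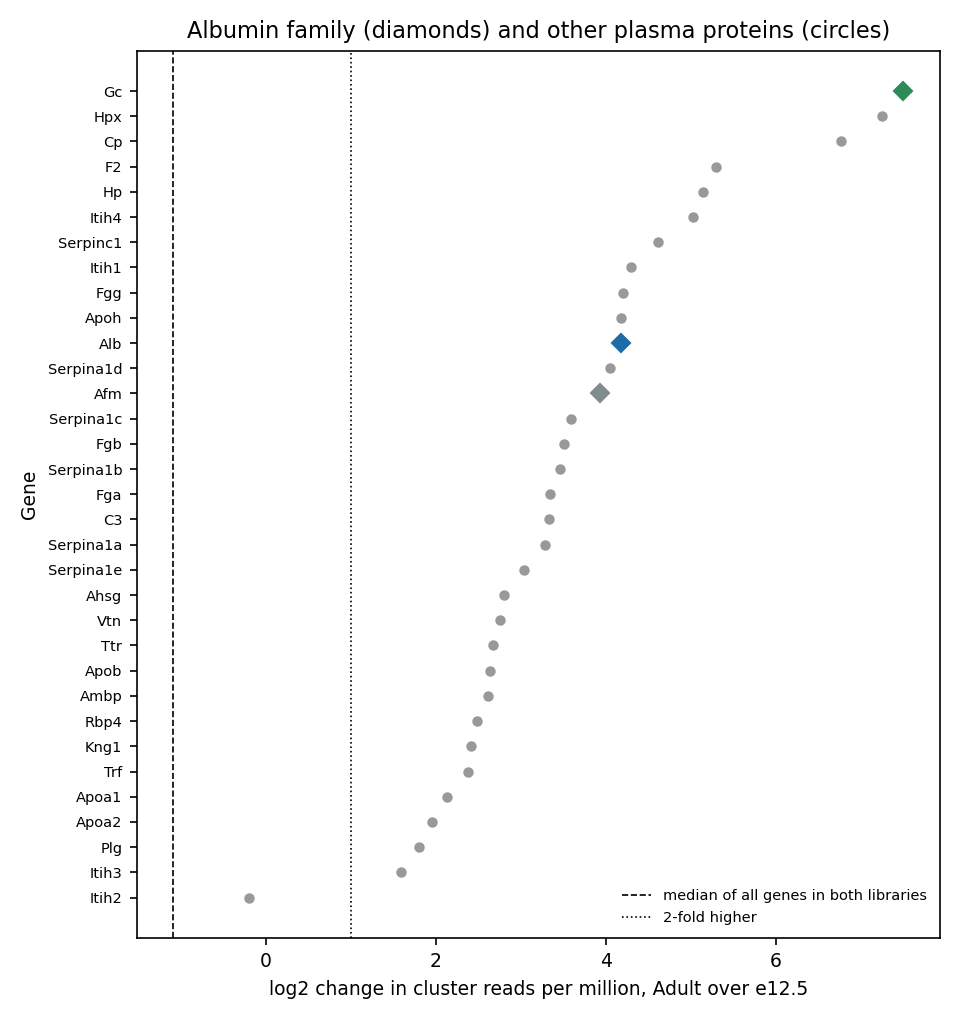
log2 change in RPM between the adult and e12.5 libraries for Alb, Afm and Gc (diamonds) and 30 other plasma proteins (circles). Gc lay above all plasma proteins listed, Alb and Afm lay among them, and Itih2 was the only one under the dotted 2-fold line; the dashed line is the median of all genes (-1.09).

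Of 14 transcription factors that act on Alb and Afp, 10 were listed at both ends, of which 7 were at least 2-fold higher in the adult (18.7% of all genes) and 1, Trp53, was lower (51.8% of all genes). Trp53, named after its value was seen, had 15.2 RPM at e12.5 and 1.29 in the adult. Cebpa, a hepatocyte differentiation factor, had 28.7, 43.1, 92.1, 37.5 and 23.1 RPM. Zbtb20, a repressor of Afp after birth, had 21.4, 20.8, 35.3, 58.4 and 57.1. Hnf4a, a nuclear receptor of hepatocytes, had 19.7, 21.1, 39.7, 41.8 and 46.6, and Nr5a2, an activator of Afp, had 24.0, 7.08, 18.4, 10.6 and 13.1.

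Of 12 genes for uptake, recycling and partners of the family, 8 were listed at both ends, with 4 at least 2-fold higher, 3 within 2-fold and 1 lower (18.7% higher and 51.8% lower over all genes). The lower one was Cubn, an endocytic receptor named after its value was seen. Fcgrt and B2m, the subunits of the receptor that rescues albumin from degradation, were both higher in the adult than at e12.5. Fcgrt had 4.17, 0.303, 53.8, 16.1 and 33.2 RPM. B2m had 4.32, 21.9, 20.2, 26.5 and 49.7 RPM. Cyp27a1, a vitamin D and sterol hydroxylase, had 49.5 in the adult against 4.19 at e12.5, with no entry at e15.5. Sparc, a matrix protein that binds albumin, was highest at P7 with 101.

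Among 7850 genes listed in all 5 libraries, the courses most like that of Alb, by Euclidean distance between log2 levels centred on each gene's mean, were those of Pde1a (0.358), Akr1d1 (0.481) and Dhrs3 (0.554). Pde1a, a phosphodiesterase, had 32.3, 86.7, 238, 384 and 533 RPM, and Akr1d1, a bile acid synthesis enzyme, went from 2.23 to 30.1. For Gc, Cdo1 (0.892) and Slc38a3 (0.973) were the closest. For Afm they were Nt5dc1 (0.773), Aldh6a1 (0.918) and Agtr1a (0.999). Afp was not compared, since it had no entry in the adult.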

How the data were processed

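Ago HITS-CLIP tables of mouse liver at 5 stages, 1 per stage, were used. Per the paper's methods, the authors used the FASTX-Toolkit for preprocessing and Bowtie for mapping, with mm10 and the precursors of miRBase v19 as targets, joined overlapping reads into clusters and searched these for seed matches. Tool versions are not given in the sources used here, and the submitters' notes name both mm9 and mm10. All 2305 distinct target fragments of the members were found at their listed position in GRCm38 (mm10). The deposited read values (a signal: unscaled highest reads, from 5 up) and conservation and energy values (a score each) were taken as they are. A cluster's reads are the maximum over its entries, those of a gene the sum over its clusters, with copies of a miRNA counted once. Levels were scaled to the summed cluster reads of the table. Intervals (95%, Wilson for levels, from counts on the log2 scale for changes) cover counting error only, and PCR duplicates may remain.

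With 1 library per stage no test was made. A 2-fold difference counted as called, among genes listed in both libraries and with no pseudocount. The calculation was tested on simulated data. The members, lists and miRNAs were chosen with earlier results of these data known. Named were the 4 members, the 3 genes with the most similar course (1 of those for Gc is not reported here), sites in the clusters with most reads per region and library, sites of the 20 miRNAs with the highest number in a library and of 5 chosen miRNAs, and per list the 4 genes with the highest RPM in any library. Trp53, Cubn and Itih2 were named in addition, after their values were seen. Alternatives were a minimum of 10 reads, matches of at least 7 bases, either list alone, the study's library totals or mRNA cluster reads as scale, the strand of the gene and, chosen after seeing the data, mRNA regions only. Mature miRNAs came from RefSeq (226 of 262 names matched). Python 3.11.15, pandas 2.3.3, NumPy 2.4.6, SciPy 1.17.1 and matplotlib 3.10.9 were used.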

Additional observations from a re-analysis of the deposited data

How the results depend on the processing

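No paired analysis was possible because each stage had 1 library. Under every alternative that gave a value, the change from e12.5 to adult stayed positive and past 2-fold for Alb, Gc and Afm. For Alb the log2 change (4.18) was 4.62 with matches of at least 7 bases, 3.56 with the first list, 4.62 with the second, 4.48 with library totals and 4.97 with mRNA cluster reads as the scale. For Gc (7.50) these values were 7.75, 7.16, 7.70, 7.80 and 8.29. For Afm (3.94) the second list gave 3.36, library totals 4.24 and mRNA cluster reads 4.73, while the first list held no Afm entry at e12.5 and gave no value. Matches of at least 7 bases left 260 of 438 miRNAs for Alb, 231 of 404 for Afp, 105 of 198 for Afm and 163 of 307 for Gc. The other 61 values moved by less than counting error or, for counts, less than 1.5 times. Those for the strand of the gene are among them and equalled the main values. Afp had no change to compute, since the adult table had no entry. The share of higher among called genes was 26.5%, from 12.3% with the first list (788 higher, 5619 lower) to 43.6% on the mRNA scale. The order of Afp and Alb, the higher level of Alb at each later stage and the maximum of Afp at e15.5 held in all 9 settings, the main one included, and the same course of Gc in 8, the exception being the first list. Not all of these settings could have differed. A change of scale cannot alter the order of Afp and Alb within a library. The strand of the gene changed no value of the members, as all their entries lay on it. Between e18.5 and P7, Alb passed 2-fold with the second list (1.12) and with library totals (1.03), and Gc with these (1.47 and 1.07) and with matches of at least 7 bases (1.23), which also took Alb past 2-fold between P7 and adult (1.22). From e12.5 to e15.5, Gc fell by 3.04 within the first list. The change of Afp between e18.5 and P7 was positive with the second list (0.25) and library totals (0.16). The study also reports a total for a replicate of e18.5, which was not used. Whether the total used for e18.5 covers both lists is not known, so changes from or to e18.5 on this scale are uncertain. Reads limited Afm most, with 109, 224 and 16 before birth. The cause of these differences was not tested.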
